A study of Xenopus laevis with 6 samples.

Results

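The gene rbpms2, earlier called hermes, is present as a pair of homeologs in the frog Xenopus laevis, rbpms2.L and rbpms2.S. Such pairs stem from an ancient doubling of the genome. All probe sets that the array's gene table assigns to either symbol were taken: 1 for rbpms2.L and 2 for rbpms2.S, a brighter and a dimmer one, which makes 3 of 15611 probe sets and 2 of 7531 named gene symbols. The genes were chosen by their measured signals on these same arrays, the .L copy for being lower with bhh and the .S copy for being described as flat. Their own bhh values are therefore given as a description, with no p-value. The paralogs rbpms.L and rbpms.S had 0 probe sets named for them and were not analysed here.

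Arrays were hybridised with RNA from pronephric explants, blocks of embryonic flank around the kidney rudiment, cut from both sides of stage 24 embryos. A first group of 3 pools came from bhh treated explants, and the other group of 3 pools from untreated explants of the same stage, with 300 explants extracted per pool and 1 array per pool. The agent bhh is banded hedgehog, a secreted ligand of the hedgehog family (current gene symbol ihh). The labels give neither the way bhh was supplied nor a mock-treated group, so bhh and the treatment procedure cannot be told apart, and they do not say whether pools came from separate clutches. If they did not, p-values measure only the spread between these pools.

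Proteins of the RBPMS family bind RNA through a single RNA recognition motif and act in the nucleus and cytoplasm on splicing, localisation and translation of their target RNAs. In Xenopus, hermes RNA is known from the developing heart and from the oocyte, where the protein sits with vegetally localised RNAs. In the chick, the RBPMS2 protein is known from precursors of gut smooth muscle.

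As a check of the treatment, the gene of the ligand itself, ihh.S, averaged 2967 ± 149 signal units in bhh explants and 22.7 ± 11.7 in untreated explants (SD, n = 3 each). This shows ligand RNA in the pools and not a response to it. Whether that RNA came from the explants' own gene was not tested. Signals are MAS5 intensities on a linear scale, with every array scaled to a trimmed mean of 500.1 and array medians between 149.9 and 170.6. Background was set at 37.6, below which lay 95% of the signals of 44 control probe sets for bacterial and tag sequences. All 3 untreated ihh.S signals lay below it, so its rise has no exact size. Of 11618 probe sets tested with limma, 86 rose (0.74%) and 74 fell (0.637%) at a Benjamini-Hochberg adjusted p under 0.05, or 1.38% together. Before adjustment, p was under 0.05 for 6.4% as higher and 5.81% as lower in bhh. This count of 160 became 71, 69, 60 and 74 without bhh array 2, bhh array 3, untreated array 2 and untreated array 3, and 733 with the replicate number as a block. In a list of hedgehog response genes, 6 of 14 tested members rose and 0 fell. The 6 include ihh.S itself and hhip.L, for a hedgehog-binding protein (log2 fold change 2.07 ± 0.25 SE, adjusted p = 0.0024). Of the list's 17 symbols on the array, ptch1.S, gli1.S and smo.S stayed below background on all 6 arrays and were not tested.

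rbpms2.L was lower on every bhh array. Its signal was 294.6, 415.7 and 452.5 on bhh arrays 1, 2 and 3, against 714.5, 1303.4 and 1177.7 on untreated arrays 1, 2 and 3. The highest bhh array stood 262.0 units below the lowest untreated array, so the groups did not overlap. Of all tested probe sets, 9.01% were lower in bhh without overlap of the groups, and 0.473% were so with a log2 difference beyond -1. The group means were 388 ± 82.6 in bhh explants and 1065 ± 310.15 in untreated explants (SD, n = 3 each). The log2 fold change was thus -1.44 ± 0.23 (SE), or 2.70-fold lower. Even the dimmest of these arrays read 7.84 times the background level. Ranked by log2 fold change, rbpms2.L was number 20 from the bottom of the 11618.

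The arrays numbered 1 carried the lowest rbpms2.L signal of both groups. They also had the highest ratio of 3' to 5' GAPDH signal, a measure of RNA integrity and labelling, at 4.42 in bhh and 4.10 in untreated explants, while the other arrays lay between 3.01 and 3.67. Within each number the difference was of a like size: the log2 difference was -1.28, -1.65 and -1.38 for numbers 1, 2 and 3. Without both arrays numbered 1, a setting chosen after seeing the data, the log2 fold change was -1.51.

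The probe sets of rbpms2.S did not give one answer. On the brighter one, the signal was 1384.0, 1193.2 and 1214.6 on bhh arrays 1, 2 and 3, and 1123.5, 1339.1 and 1217.2 on untreated arrays 1, 2 and 3. These groups overlapped, with means of 1264 ± 105 in bhh and 1227 ± 108 in untreated explants (SD, n = 3 each). The log2 fold change was 0.04 ± 0.13 (SE).

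On the dimmer rbpms2.S probe set, all 3 bhh arrays were lower. It read 582.9, 524.8 and 547.3 on bhh arrays 1, 2 and 3, against 611.4, 673.3 and 751.1 on untreated arrays 1, 2 and 3. A gap of 28.5 units separated the groups, which averaged 552 ± 29.3 in bhh and 679 ± 70.0 in untreated explants (SD, n = 3 each). That is a log2 fold change of -0.30 ± 0.14 (SE). The description of the .S copy as flat thus holds for its brighter probe set, while the dimmer one was lower without overlap, as were 9.01% of all tested probe sets.

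**Figure D1:**
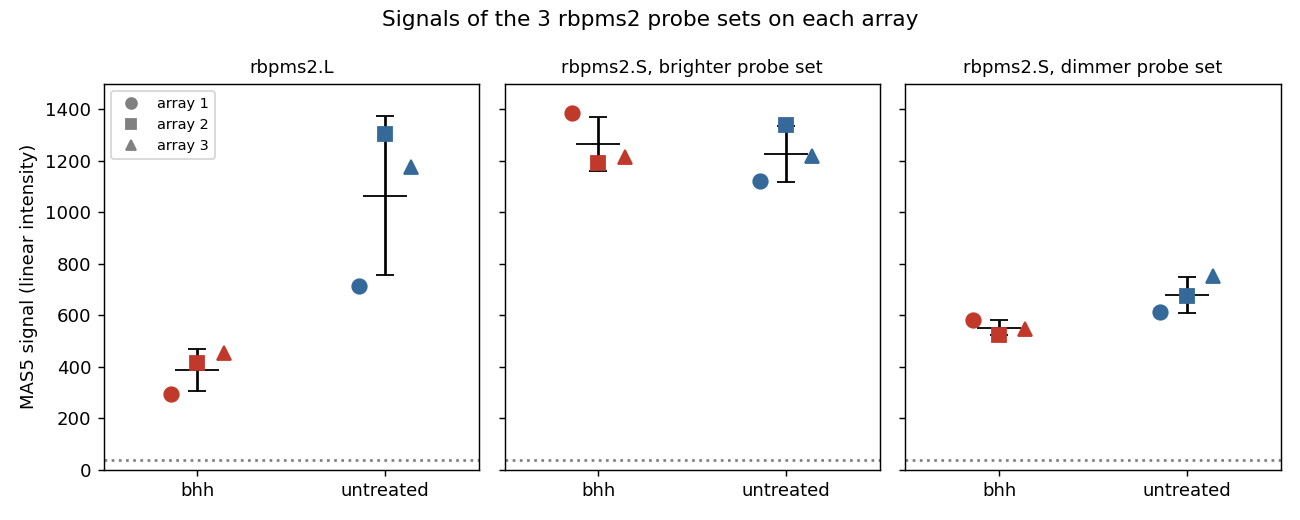
MAS5 signal (linear intensity, y axis from 0) of the 3 rbpms2 probe sets on each array, bhh left and untreated right. Marker shapes give the array number, bars the mean ± SD of 3 arrays and the dotted line the background of 37.6; rbpms2.L lies between 294.6 and 452.5 on bhh arrays, below all untreated arrays, and the brighter rbpms2.S probe set overlaps between groups.

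Levels of different probe sets cannot be set against each other, since each has its own probes, but the change of their ratio within an array can. Relative to the untreated mean, the log2 ratio of .L to the brighter .S probe set was -1.99, -1.27 and -1.18 on bhh arrays 1, 2 and 3, and -0.41, 0.21 and 0.20 on untreated arrays 1, 2 and 3. With the dimmer .S probe set it was -1.59, -0.95 and -0.88 in bhh and -0.38, 0.34 and 0.04 in untreated explants. The ratio was lower on every bhh array than on any untreated array by either probe set, and the copies' log2 fold changes differed by -1.48 ± 0.27 (SE) with the brighter and -1.14 with the dimmer one. The ratio between both .S probe sets was also lower in bhh, at -0.39, -0.33 and -0.29 against -0.02, -0.14 and 0.16 in untreated explants, a difference of -0.34. Which stretch of each transcript these probe sets read, and how far each also binds RNA of the other copy, was not tested.

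**Figure D2:**
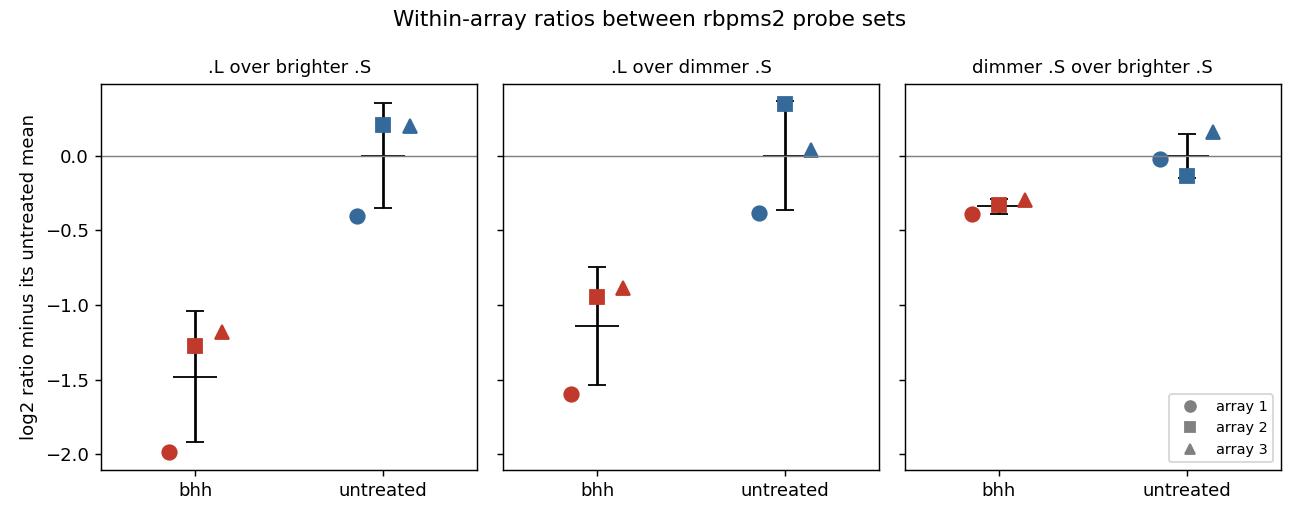
Log2 ratio between rbpms2 probe sets on each array, minus its mean over the 3 untreated arrays (y axis), bhh left and untreated right, with the mean ± SD of 3 arrays. Both .L over .S ratios average below -1 in bhh explants (-1.48 and -1.14), and the ratio of the dimmer to the brighter .S probe set averages -0.34.

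To see how often copies part in this way, the brightest tested probe sets of both copies were compared for all 812 pairs with both tested. The median size of the difference between the copies' log2 fold changes was 0.18, the 90th percentile 0.48 and the 99th percentile 1.02. At 1.48, rbpms2 had rank 5 of the 812, behind pax3, ppp1r1a, aldh1a1 and foxd3, and it kept rank 5 with its dimmer .S probe set. Probe sets of a single copy differed about as much: over 928 copies with at least 2 tested probe sets the median was also 0.18 and the 99th percentile 0.95. The 0.34 between the rbpms2.S probe sets was larger than 77.4% of these values, and 8 of the 928 copies had a difference over 1, as had 9 of the 812 pairs.

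**Figure D3:**
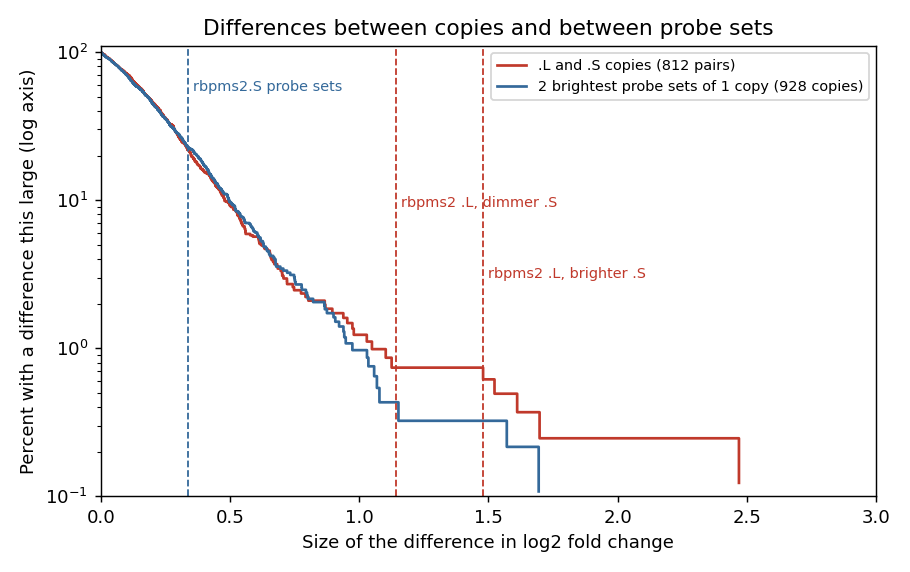
Share of .L and .S pairs (812) and of single copies with 2 probe sets (928) whose log2 fold changes differ by at least the value on the x axis (y axis in percent, log scale). Dashed lines mark rbpms2: both curves run close together up to a difference of about 1, and the .L to .S differences of 1.48 and 1.14 lie in the tail.

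The difference between copies was tested with limma on the within-array ratio of each pair, and 3 of 812 passed, or 0.369%. rbpms2 was in this fit, but no p-value is given for it and its outcome is not read, since this difference chose it. pax3.L and pax3.S, copies of a paired-box gene active in precursors of muscle and neural crest, differed by 2.47 ± 0.32 (log2, SE, adjusted p = 0.014), the .L copy at 0.77 and the .S copy at -1.70. The 4 pax3.L probe sets disagreed, however, with log2 fold changes from -1.20 to 0.77, and the brightest was used. pax3.S read 59.3, 38.9 and 36.3 on bhh arrays 1, 2 and 3, the last below the background of 37.6. The size of its fall, and so of this difference, is therefore uncertain. For aldh1a1, which encodes a retinaldehyde dehydrogenase, the .L log2 fold change minus that of the .S copy was -1.61 ± 0.22 (adjusted p = 0.014). foxd3.L and foxd3.S, copies of a neural crest transcription factor gene, differed by 1.52 ± 0.24 (adjusted p = 0.034), with 1.03 for the .L and -0.49 for the .S copy, neither of which passed alone. foxd3.L read 37.2 on untreated array 1, below background, and 71.5 and 61.5 on untreated arrays 2 and 3, so the size of this difference is uncertain too. With an offset of 64 added to each signal, pax3 still passed (1.62), while aldh1a1 (-0.87) and foxd3 (0.89) had adjusted p = 0.050 and did not. The count hung on single arrays: it was 0 without bhh array 2, untreated array 1 or untreated array 3, 1 without bhh array 3 or untreated array 2, and 3 without bhh array 1. Next by p, with rbpms2 left out of the order, stood kit, a receptor kinase gene, at -1.03 ± 0.20 (adjusted p = 0.10), then arf6.2 and the intermediate filament gene prph, both at adjusted p = 0.39.

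Among the other 811 pairs, 2 had one copy that fell and another within 0.25 of no change on the log2 scale, or 0.247%. One was aldh1a1, whose .L copy fell (log2 fold change -1.77 ± 0.26, adjusted p = 0.0065) while the .S copy had -0.15 ± 0.32. With untreated array 2 left out that fall no longer passed (adjusted p = 0.066). Its signals lay near the background of 37.6, so the size of the fall is uncertain, and it was -0.94 with an offset of 64. aldh1a1.L read 29.4, 49.9 and 44.4 in bhh explants, against 121.2, 147.7 and 142.9 in untreated explants, which puts 1 bhh array below background and the other two just above it. In the second pair, des.1, which encodes the muscle intermediate filament desmin, the .S copy fell (-0.90 ± 0.16, adjusted p = 0.018) and the .L copy had -0.16 ± 0.15. The des.1.S call was lost without bhh array 2 or 3 or untreated array 2 or 3, and with no trend. The difference between the des.1 copies did not itself pass (0.74 ± 0.26, adjusted p = 0.48).

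**Figure D4:**
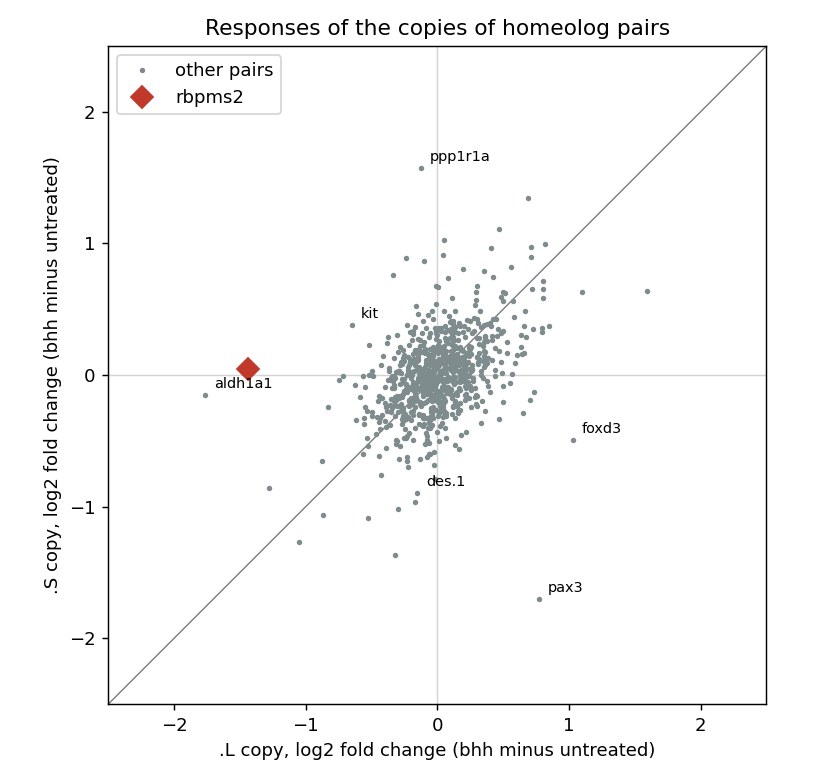
Log2 fold change (bhh minus untreated) of the .L copy (x axis) against the .S copy (y axis) for 812 homeolog pairs, 1 point each, with the line of equal change. rbpms2 (diamond) lies at -1.44 and 0.04, close to aldh1a1 at -1.77 and -0.15, and pax3 and foxd3 lie on the other side of the line.

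Other genes for RNA-binding proteins were set beside rbpms2 from a list of developmental regulators of splicing, RNA stability and translation. None of its 40 tested members passed the limma test. Before adjustment, p was under 0.05 for 2 higher and 3 lower members of the 40, against 6.4% higher and 5.81% lower over all tested probe sets. Their median log2 fold change was 0.06 (0.00 over all tested probe sets). With the replicate number as a block 2 members were higher and 2 lower, against 733 of all 11618 probe sets that passed with it. Without bhh array 1, 1 member passed. The smallest p belonged to zfp36l2.S, whose protein marks RNAs for decay, with 3000 ± 434 signal units in bhh and 1980 ± 60.2 in untreated explants (log2 fold change 0.59 ± 0.14, adjusted p = 0.077, or 0.0023 with the block). Its partner zfp36l2.L had 0.48 ± 0.19 (adjusted p = 0.35, or 0.016 with the block). msi1.S, copy of a gene for a translational regulator of neural progenitors, had 208 ± 35.6 in bhh and 351 ± 49.5 in untreated explants (-0.76 ± 0.19, adjusted p = 0.095, or 0.0037 with the block), and msi1.L had -0.43 ± 0.18 (adjusted p = 0.38, or 0.12 with the block). cirbp.S, a cold-inducible RNA-binding protein gene, had -0.44 ± 0.17 (adjusted p = 0.34, or 0.020 with the block).

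In this list 10 pairs had both copies tested. Their copies differed by 0.0024 to 0.35 on the log2 scale, with a median of 0.22, the largest being cirbp. rbpms2, which was not counted in the list, had 1.48.

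The summed signals of marker lists for somite and skeletal muscle and the pronephric rudiment were, like rbpms2.L, lower on all bhh arrays than on any untreated array. That of the smooth muscle list, given below, was so too, but it rested largely on tropomyosin genes, of which tpm1.L is also in the somite list. In each of these lists most members did not pass the test. The part of these tissues in the rbpms2.L values was not tested. Of 26 tested somite and skeletal muscle genes, 5 fell and 0 rose (before adjustment, p was under 0.05 for 2 higher and 14 lower members, against 6.4% and 5.81% over all). Their median log2 fold change was -0.46, and their summed signal was 112894 to 139724 on bhh arrays, against 152599 to 183745 on untreated arrays. The fallen ones included the creatine kinase gene ckb.L (-1.06 ± 0.13, adjusted p = 0.0027) and myh8.L, for a myosin heavy chain (-0.84 ± 0.12, adjusted p = 0.0043). Leaving out untreated array 2 or 3 brought that count to 2 or 3. With the block 15 fell and 2 rose, against 733 of all 11618 probe sets that passed with it in either direction. The 2 that rose were myod1.S (0.79 ± 0.17, adjusted p = 0.053, or 0.0059 with the block) and pax3.L (0.77 ± 0.19, adjusted p = 0.093, or 0.0037 with the block). The desmin gene des.1 was not matched to this list, as its symbol differs from the listed des. Its copies, of which des.1.S fell as given above, are thus not counted. Of 20 tested genes of the pronephric rudiment, 4 fell and 1 rose, against 0.637% and 0.74% of all tested probe sets. Before adjustment, p was under 0.05 for 7 lower and 1 higher members, against 5.81% and 6.4% over all. Among the fallen, fxyd2.S, for a sodium pump regulator, read below background on all 3 bhh arrays (20.6 to 32.5), against 462.7 to 739.0 on untreated arrays, so its fall has no exact size. dll1.L, for a Notch ligand, lay above background throughout and had -1.91. The list's median log2 fold change was -0.41, with sums of 4861 to 6559 in bhh and 6823 to 9665 in untreated explants. The gene that rose was osr1.L (0.99 ± 0.18, adjusted p = 0.025). Its call was lost without bhh array 2 or 3 or untreated array 2 or 3. In pools of explants, fewer cells of a type and less RNA per cell cannot be told apart.

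Genes of heart and smooth muscle, tissues in which rbpms2 is known, were counted in the same way. Among 19 tested genes of the heart and its progenitors, 2 rose, the transcription factor genes gata5.S (1.35 ± 0.18, adjusted p = 0.0038) and hand1.L (1.00 ± 0.14, adjusted p = 0.0043), and 0 fell (before adjustment, 5 higher and 1 lower, against the same 6.4% and 5.81% over all). The troponin gene tnnc1.S had -0.53 ± 0.14 (adjusted p = 0.11, or 0.0045 with the block). With the block 6 members rose and 1 fell, against 733 of all 11618 probe sets that passed with it. The list's median log2 fold change was 0.24. The list's summed signal was 8893 to 9024 in bhh and 7974 to 8483 in untreated explants. Of its contractile genes, myh6.S, tnni3.L, tnni3.S and tnnt2.L stayed below background on all 6 arrays, while tnnc1.S read 1869.9 to 3340.3. Among 16 smooth muscle genes, foxf1.L, a lateral plate transcription factor gene, rose (1.44 ± 0.18, adjusted p = 0.0030), and tpm2.L, for a tropomyosin, fell (-0.64 ± 0.12, adjusted p = 0.030). The copies of des.1 were not counted in this list either. Before adjustment, p was under 0.05 for 1 higher and 2 lower members, against the same 6.4% and 5.81%. The median was -0.04, and with the block 1 rose and 2 fell, against the same 733 of 11618. The tpm2.L call was lost without any array but bhh array 1, and with median scaling or no trend. Of this list's 21 symbols on the array, 4 were below background on all 6 arrays, among them myh11.S, tagln.L and cnn1.S. Others were well above it, such as acta2.L at 419.5 to 605.2. The list's sum was 21200.4 to 21636 in bhh and 23182 to 25510.3 in untreated explants, thus lower on all bhh arrays. Much of it came from the tropomyosin genes tpm1.L (mean 5254 in bhh, 7485 in untreated explants) and tpm2.L (3432 and 5364). tpm1.L is also in the somite and skeletal muscle list. Only 9 of the 16 members had a log2 fold change below 0, so the lower sum does not describe the list as a whole.

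Probe sets were ranked by how closely their log2 signal followed that of rbpms2.L over the 6 arrays. These values describe the arrays only, since all genes share the same hybridisations and the same split by treatment. The closest was pcbd1.L, for a cofactor of HNF1 and pterin dehydratase (Pearson r = 0.995), with 147.6, 183.6 and 183.9 on bhh arrays, against 268.1, 369.0 and 331.1 on untreated arrays. ckm.L, the muscle creatine kinase gene, followed (r = 0.993), at 5528.7, 6360.3 and 6268.7 in bhh and 8498.9, 10845.5 and 10800.7 in untreated explants. Both of these probe sets fell in the limma test (log2 fold changes -0.91 ± 0.18 and -0.73 ± 0.15, adjusted p = 0.039 each). Both calls were lost when bhh array 1, 2 or 3 or untreated array 2 or 3 was left out. They were also lost with no filter on dim probe sets and with no trend. ckm.L had 3 tested probe sets, and its brightest had -0.74 ± 0.16 and did not pass (adjusted p = 0.053). On that probe set the array numbered 1 was the highest of its group, at 9545.8 in bhh and 16937.5 in untreated explants.

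The next 6 did not pass that test. They were mrps17.L, for a protein of the mitochondrial ribosome (r = 0.992), vdac1.S, for a channel of the outer mitochondrial membrane (0.991), copg1.L, for a vesicle coat protein (0.990), got2.L, for mitochondrial aspartate aminotransferase (0.989), cxcr4.S, a chemokine receptor gene (0.987), and acadm.L, for an enzyme of fatty acid oxidation (0.987). Their log2 fold changes lay between -0.72 (got2.L, adjusted p = 0.090, or 7.8e-04 with the block) and -0.37 (copg1.L, adjusted p = 0.25). All but copg1.L passed with the block, as did 733 of all 11618 probe sets. In the ranked probe sets of all 8 genes, as in rbpms2.L, the groups did not overlap and the array numbered 1 was the lowest of its group. Such traits follow from the choice of these genes by likeness to rbpms2.L and are no separate result. Of all tested probe sets, 9.01% were lower in bhh without overlap. The differences were smaller than the -1.44 of rbpms2.L in each of them.

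**Figure D5:**
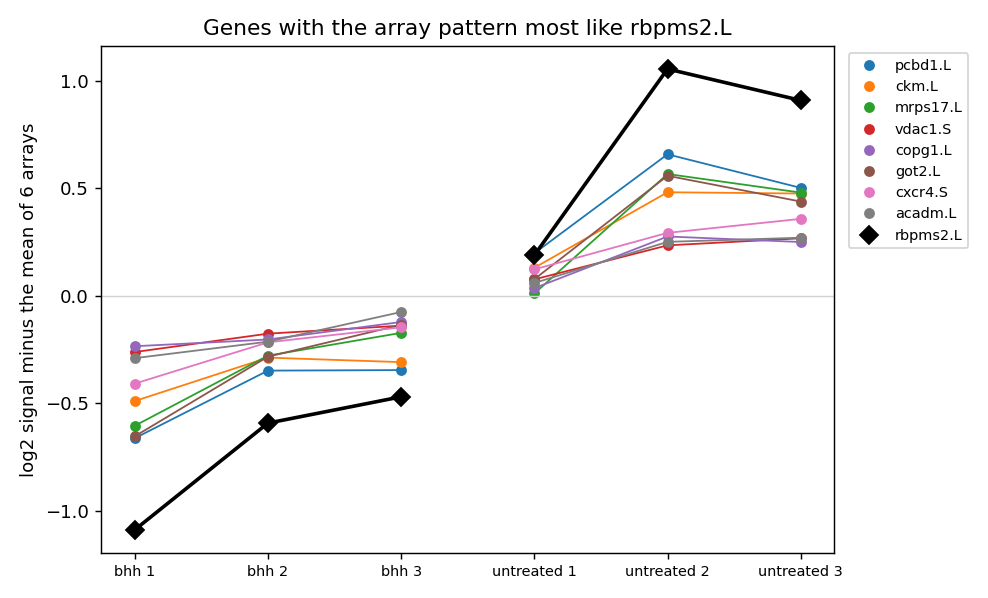
Log2 signal minus the mean of the 6 arrays (y axis) for rbpms2.L (black) and the 8 genes whose pattern was closest to it, by array (x axis). Lines join arrays of 1 group only to guide the eye. rbpms2.L has the widest swing, and array 1 is the lowest of each group in every probe set shown, which follows from their choice by likeness.

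For the brighter rbpms2.S probe set, whose treated and untreated signals overlapped, the closest were rc3h1.L, for an RNA-binding ubiquitin ligase (r = 0.989), sh3rf1.S (0.980), prpsap1.L (0.980) and hnrnpc.L, for a nuclear RNA-binding protein (0.958). Their log2 fold changes ran from 0.09 to 0.13, and none passed the test with or without the block. In these genes bhh array 1 was the highest of its group and untreated array 1 the lowest. This was also the order in the brighter rbpms2.S probe set, by which they were chosen. Over the 6 arrays rbpms2.L had r = -0.12 with the brighter .S probe set and 0.84 with the dimmer one.

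In the RefSeq gene table of X. laevis, rbpms2.L and rbpms2.S lie on chromosomes 3L and 3S, each with scamp5.2 and cpeb1 within 4 protein-coding genes. Of the 10 nearest protein-coding genes on each side, 3 were tested around rbpms2.L (trip4.L, ppib.L and snx1.L) and 3 around rbpms2.S (commd4.S, snx22.S and ppib.S). All 3 tested around rbpms2.L lay on its low side, so its high side was not read. None of the neighbours passed the limma test, either in the main fit (0 with p under 0.05 before adjustment) or with the block (0 passed). Over all tested probe sets 1.38% passed in the main fit, so 0 among so few says little about the neighbours. Log2 fold changes ran from -0.14 to 0.04 around rbpms2.L and from -0.46 to 0.05 around rbpms2.S. The nearest tested neighbour of rbpms2.L was snx1.L, for a sorting nexin, 4 genes away, with 0.04 ± 0.22. For ppib, a cyclophilin gene near both copies, the .L copy had 0.03 ± 0.16 and the .S copy -0.21 ± 0.16.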

How the data were processed

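The authors deposited a linear intensity for each probe set on each array. The submitters' processing notes name MAS5, its version and settings being not given in the sources used here. This algorithm subtracts mismatch signal and scales each array. No pair of arrays shared more than 0.250% identical values. Precision is limited by how few arrays there are. Of 15611 probe sets, 120 controls were left out. Of the other 15491, 9304 had 1 gene symbol, 195 several and 5992 none. Symbols were updated by gene identifier through the RefSeq table of assembly Xenopus_laevis_v10.1 (9227 matched, 77 kept the older name), which was used for names and gene order only. Sequences were not used here.

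After the dimmest 25% by mean log2 signal were dropped, 11618 remained. Each was fitted on the log2 scale by limma 3.58.1 under R 4.3.3, with a trended eBayes prior, two-sided tests and Benjamini-Hochberg adjustment at 0.05. A list counts the brightest probe set of each symbol. Pairs were fitted on the within-array difference of log2 signals, adjusted over 812 pairs. Both fits were tried on simulated data with independent noise between arrays. The probe set fit recovered 70% of log2 changes of 1 and 96% of changes of 2, and 4.05% of its calls were false. The pair fit recovered 83% and 97%, and 6.25% of its calls were false. Its simulated data held a far larger share of changed pairs than the 0.369% that passed here, which eases the adjusted cutoff. These 2 recovery values may thus be too high for the present data. The link between arrays of the same number, given next, was not simulated. Deviations from group means correlated at 0.407, 0.178 and 0.298 between arrays of the same number 1, 2 and 3. Each was over the limit of 0.1, so a fit with the replicate number as a block stands beside the main one. Some arrays of unlike number were over it too: bhh array 3 with untreated array 2 (0.173) and bhh array 2 with untreated array 3 (0.147). The remaining unlike pairs had -0.357 to -0.237. Matching by number is thus not established for arrays 2, and results with the block rest on it. The labels do not say what the numbers stand for. The rule for naming took every rbpms2 probe set, the 8 and 4 closest patterns, the 6 pairs with the smallest p besides rbpms2, pairs in which 1 copy fell and the other stayed within 0.25, and up to 4 members of each list by p. Some further list members were named outside this rule, to show changes in the other direction or signals above and below background. Members and lists were chosen with earlier results of these data known. Alternatives were quantile and median scaling, offsets of 16 and 64, other filters on dim probe sets, the block, array weights, no trend, the mean of a copy's probe sets, and leaving out each array.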

Additional observations from a re-analysis of the deposited data

How the results depend on the processing

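The rbpms2.L log2 fold change was -1.70 to -1.25 with 1 array left out and -1.51 to -1.30 in the other alternatives. The difference between the copies was -1.68 to -1.23 and -1.49 to -1.14. Neither overlapped between the groups, so leaving out arrays could not reverse their direction. Some settings, such as the block or no trend, cannot change these estimates at all. The log2 fold change of rbpms2.S, 0.04, was -0.02 to 0.11 with 1 array left out and -0.13 as the mean of its probe sets. It was -0.085 without both arrays numbered 1 and -0.30 with the dimmer probe set, 2 settings chosen after seeing the data. The count of 160 probe sets was 733 with the replicate block, 657 with array weights, 95 with no trend, 591 without both arrays numbered 1 and 60 to 187 with 1 array left out. The count of 3 pairs was 1 with no filter on dim probe sets, and that pair was not pax3, aldh1a1 or foxd3. The count was 0 with the lowest 50% dropped, where these 3 pairs were no longer tested. It was 5 with array weights, 4 with the replicate block and 0 to 3 with 1 array left out. The count of 0 RNA-binding genes was 4 with the replicate block, 3 with array weights, 3 without both arrays numbered 1 and 0 to 1 with 1 array left out. No neighbour of rbpms2 passed in any of 17 alternatives. Apart from pairs that were no longer tested, the cause of these shifts was not tested. Fold changes of probe sets near the background of 37.6 have no firm size: an offset of 64 gave -0.94 for aldh1a1.L, against -1.77 without it.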

Other observations

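RNAs of the oocyte's vegetal pole and germ plasm, with which the hermes protein is known to sit, were also looked at. Of 20 such symbols on the array, 6 stayed below background on all 6 arrays, among them dazl.L and germes.L, and 9 were tested. None passed the limma test, nor did any with the replicate block (0). Before adjustment, p was under 0.05 for 1 higher and 2 lower genes of the 9, against 6.4% higher and 5.81% lower over all tested probe sets. ddx4.L, the vasa-type helicase gene of germ cells, averaged 404 ± 47.8 in bhh and 301 ± 25.8 in untreated explants (SD, n = 3 each, log2 fold change 0.42 ± 0.16, adjusted p = 0.30). vegt.L, a T-box gene of endoderm formation, had 40.6 ± 2.76 in bhh and 67.1 ± 12.2 in untreated explants (-0.71 ± 0.26, adjusted p = 0.28). Its bhh signals lay just above the background of 37.6, and with an offset of 64 the difference was -0.32. wnt11.S, a Wnt ligand gene, had a log2 fold change of -0.79 ± 0.29 without an offset (adjusted p = 0.28). It read 38.9 on bhh array 1, also just above background, and its log2 fold change ran from -0.95 to -0.36 over the alternatives.

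BMP ligands, antagonists and targets held 1 of 20 tested members that fell, fst.L, for the antagonist follistatin, with 172 ± 9.41 in bhh and 415 ± 20.8 in untreated explants (SD, n = 3 each, -1.27 ± 0.15, adjusted p = 0.0019). None rose in the limma test, and before adjustment 4 higher and 2 lower members of the 20 had p under 0.05, against the same 6.4% and 5.81% over all. With the replicate block 4 rose and 2 fell, against 733 of all 11618 probe sets that passed with it. bmp2.L, for a BMP ligand, had 1.10 ± 0.25 (adjusted p = 0.074, or 0.015 with the block).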
